A study of Gallus gallus with 9 samples.

Results

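The SLC25 carriers, the proteins that move metabolites across the inner membrane of mitochondria, were followed in the livers of 9 broiler chickens. All probe sets whose single gene symbol in the platform annotation begins with SLC25A were taken, which gave 71 of the 38439 probe sets other than array controls and 33 of 13009 genes. The birds were ROSS308 commercial meat chickens, 35 days old, which had eaten freely since hatching. The control group (4 birds) ate a standard diet with no selenium added. The Se-yeast group (5 birds) ate the same formulation with selenized yeast (Sel-Plex), so that each kg of feed held 0.5 mg more selenium. The labels name no transgene or engineered allele and give no sex, and 1 further control sample was excluded by the submitters for quality and is not analysed here. The samples of each group are numbered as biological replicates, with 1 array for each bird, and whole liver was used, so that a signal averages over all its cell types.

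The SLC25 family is the largest group of transporters in the mitochondrial inner membrane. Its members share a fold of repeated helical segments, and most exchange one small molecule in the matrix for another outside it, among them ADP for ATP, citrate for malate, or ornithine for citrulline. In mammalian liver they link the matrix to cytosolic fatty acid synthesis, to the urea cycle, to gluconeogenesis and to the oxidation of fatty acids. They also bring in the cofactors, iron and glutathione that matrix enzymes need. Many substrates were worked out with mammalian or yeast proteins, and the substrate groups used here carry those assignments over to the chicken genes by name.

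A probe set was tested when its mean log2(signal + 16) over the 9 arrays reached the 40th percentile of all probe sets, 6.33 on that scale or a signal of 64.7. Of the 71 carrier probe sets 57 passed, and each of the 33 genes kept at least 1. A probe set has its own brightness, so a high signal for one carrier and a low signal for another do not rank their transcripts, and levels are compared only between birds. On each array the median signal of all probe sets lay between 100.8 and 125. The tissue label was checked against markers: all 7 hepatocyte markers on the array were tested, among them ALB and TTR, with summed signals of 327054 to 391490.0 in control and 396022 to 615168 in Se-yeast birds. Of 8 skeletal muscle markers, 7 lay below the filter. Hepatocyte sums did not overlap between the groups, with 391490.0 in the highest control and 396022 in the lowest Se-yeast bird. Each of the 7 hepatocyte markers by itself overlapped. The sums of 8 macrophage markers were 60286 to 81113 in control and 77826 to 95316 in Se-yeast birds. Among these markers CSF1R did not overlap, with 3017 to 3402 in control and 3581 to 4719 in Se-yeast birds, and the others did. Groups did not overlap for 1.64% of all tested probe sets. No marker of these lists passed the test, and the part of these markers in the results that follow was not tested. In whole tissue, fewer cells of a type and less RNA per cell cannot be told apart.

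The diets were compared to see which liver transcripts differ after selenium supplementation. No carrier passed the test: 0 of 57 tested probe sets had an adjusted p under 0.05 in limma with Benjamini-Hochberg adjustment over all 23063 probe sets, of which 6 passed (0.026%), 4 of them higher (0.0173%) and 2 lower (0.00867%) in Se-yeast birds. At an unadjusted p under 0.05 there were 3 of 57 carrier probe sets (5.26%), those of SLC25A30, SLC25A25 and SLC25A21, against 4.67% of all tested probe sets. Counted on the brightest tested probe set of each gene, 16 of the 33 carriers had a positive difference and 17 a negative one; quantile normalisation made this 18 and 15, and median centring 15 and 18. Their median difference, Se-yeast minus control, was -0.0077 on the log2(signal + 16) scale, and that of all 10382 tested genes was 0.015. The middle of the family therefore lay where the middle of all genes lay, with single carriers from -0.50 (SLC25A21) to 0.99 (SLC25A30). In simulated data the same test found 42.75% of changes of 1 on the log2 scale and 2% of changes of 0.5. Each simulated run held 200 changed probe sets, whereas 6 probe sets passed in the real data. The adjustment is stricter where fewer probe sets change, so these shares can be too high for the real data. A carrier that did not pass may therefore still differ.

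**Figure D1:**
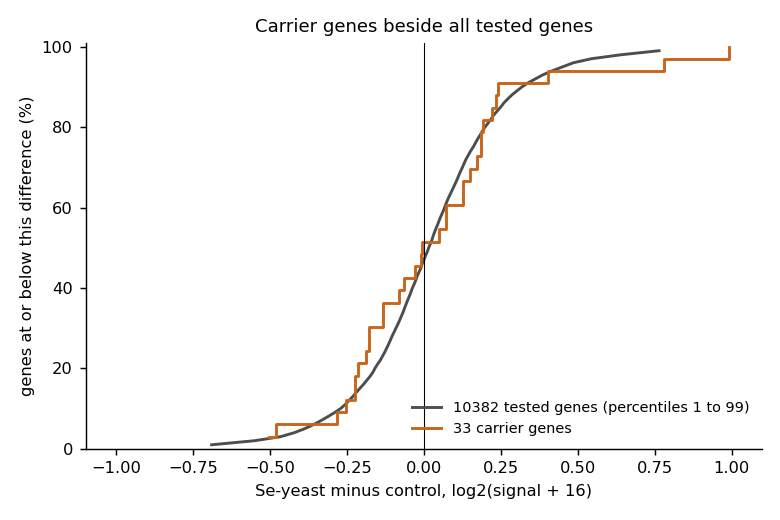
Cumulative share of genes (vertical axis, percent) by the difference Se-yeast minus control on the log2(signal + 16) scale (horizontal axis), for the 33 carrier genes (orange steps) and for percentiles 1 to 99 of the 10382 tested genes (grey line). The curves cross near 0, and the last carrier steps to the right are SLC25A25 at 0.78 and SLC25A30 at 0.99.

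For most carriers the brightest probe set put a bound on the difference. On it the 95% interval lay inside a 2-fold change in either direction for 29 of the 33 genes, and inside a 1.5-fold change for 18. The intervals of SLC25A15, SLC25A25, SLC25A30 and SLC25A48 reached past 2-fold. So did those of dimmer tested probe sets of SLC25A14, SLC25A22, SLC25A37 and SLC25A39, for which the bound therefore rests on the brightest probe set alone. The size of the difference was under 0.2 on the log2 scale for 20 genes and over 0.5 for 3. The median size of the difference was 0.18 over the carriers and 0.14 over all tested genes. The median SE of a difference was 0.20 over the carriers and 0.20 over all tested genes. Birds of one diet varied by more than the median size of a carrier difference. The median SD within groups was 0.27 over the carriers and 0.30 over all tested genes.

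**Figure D2:**
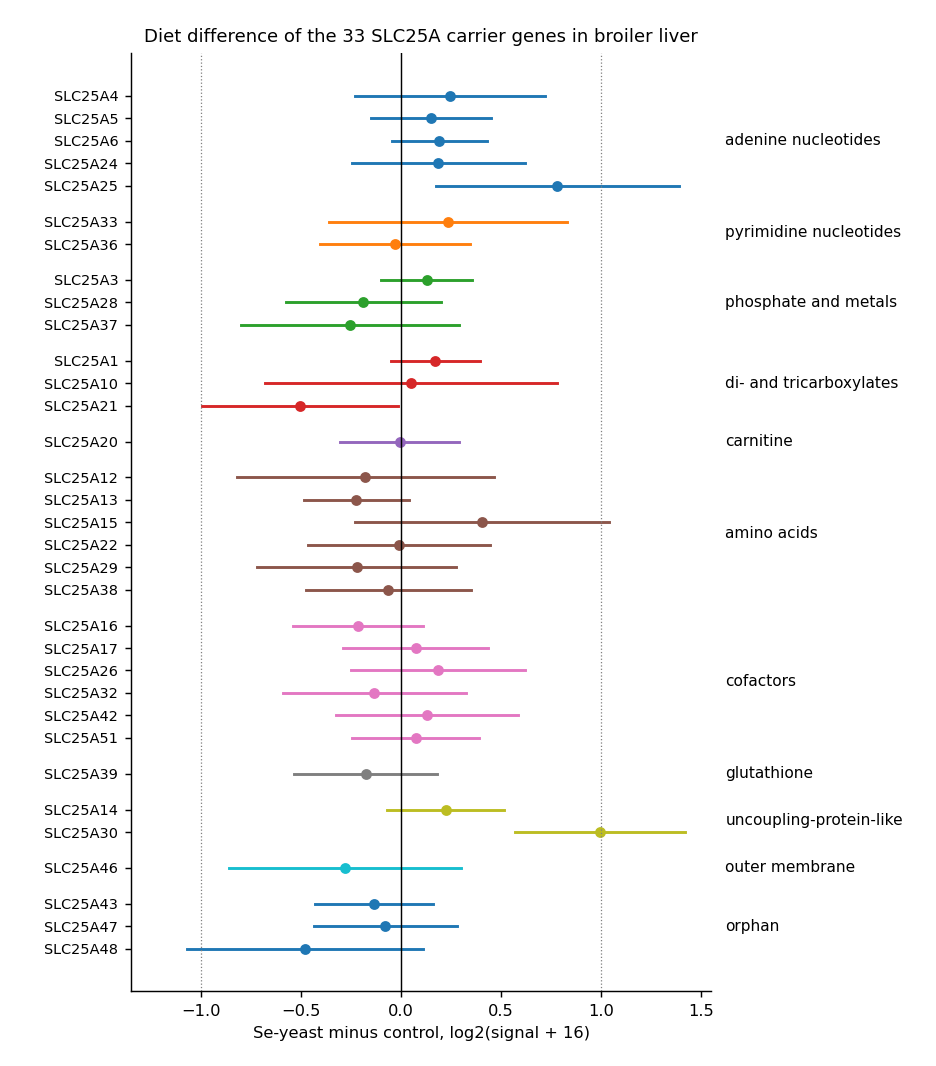
Difference Se-yeast minus control on the log2(signal + 16) scale for the 33 carrier genes (points), each on its brightest tested probe set. Lines give the 95% interval from limma, genes are grouped by substrate, and dotted lines mark a 2-fold change. The interval of SLC25A30, 0.57 to 1.42, lies farthest to the right, and most others cross 0.

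SLC25A30 belongs to the carriers related to uncoupling proteins, which in mammals can let protons leak back into the matrix. Its positive difference was the largest among all tested carrier probe sets. In size it was exceeded only by a dim probe set of SLC25A22, at -1.06. SLC25A30, also called KMCP1 and first known from kidney, has a less settled substrate. Its signal was 141, 159, 229.8 and 179 in control replicates 1 to 4. In Se-yeast replicates 1 to 5 it was 306, 299.9, 398, 373 and 459. Each Se-yeast bird lay above each control bird, with a gap between control replicate 3 and Se-yeast replicate 2. Means were 177 ± 38.5 in control and 367 ± 66.6 in Se-yeast birds (SD over 4 and 5 birds), a 1.99-fold difference (0.99 on the log2 scale, SE 0.20, 95% interval 0.57 to 1.42), which did not pass (limma adjusted p = 0.371). The gene was singled out with these values known, so they are a description. By unadjusted p it stood at place 14 of 23063 probe sets, and by size of increase at place 95. The array carries 1 probe set named for this gene, so no second one could be set beside it. The hepatocyte sums did not overlap between the diets either, at 327054 to 391490.0 in control and 396022 to 615168 in Se-yeast birds. Each of the 7 hepatocyte markers by itself overlapped. Within the Se-yeast group the hepatocyte sums were highest in replicates 1 and 2 (615168 and 509523), which had the lowest SLC25A30 signals of that group. Within the control group replicate 3 was highest in both. The part of the hepatocyte sums in the SLC25A30 values was not tested.

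SLC25A14, or UCP5, is best known from brain. Its brighter probe set, of a kind that can also read related transcripts, gave 541, 579, 579 and 513 in control and 688, 601, 712, 586 and 655 in Se-yeast birds. The groups touched without overlapping, since the lowest Se-yeast bird, replicate 4, lay just above control replicates 2 and 3. The difference was 0.22 (SE 0.13; limma adjusted p = 0.999), and on the dim probe set of the gene, where the groups overlapped, it was 0.38. Of the 57 tested carrier probe sets 3 had groups that did not overlap (5.26%), those of SLC25A30, SLC25A14 and SLC25A43; over all tested probe sets the share was 1.64%. UCP3, the avian uncoupling protein of muscle, belongs to the same family under another symbol; its signals ran from 8.13 to 79.5 and lay below the filter. SLC25A27 was not analysed here.

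**Figure D3:**
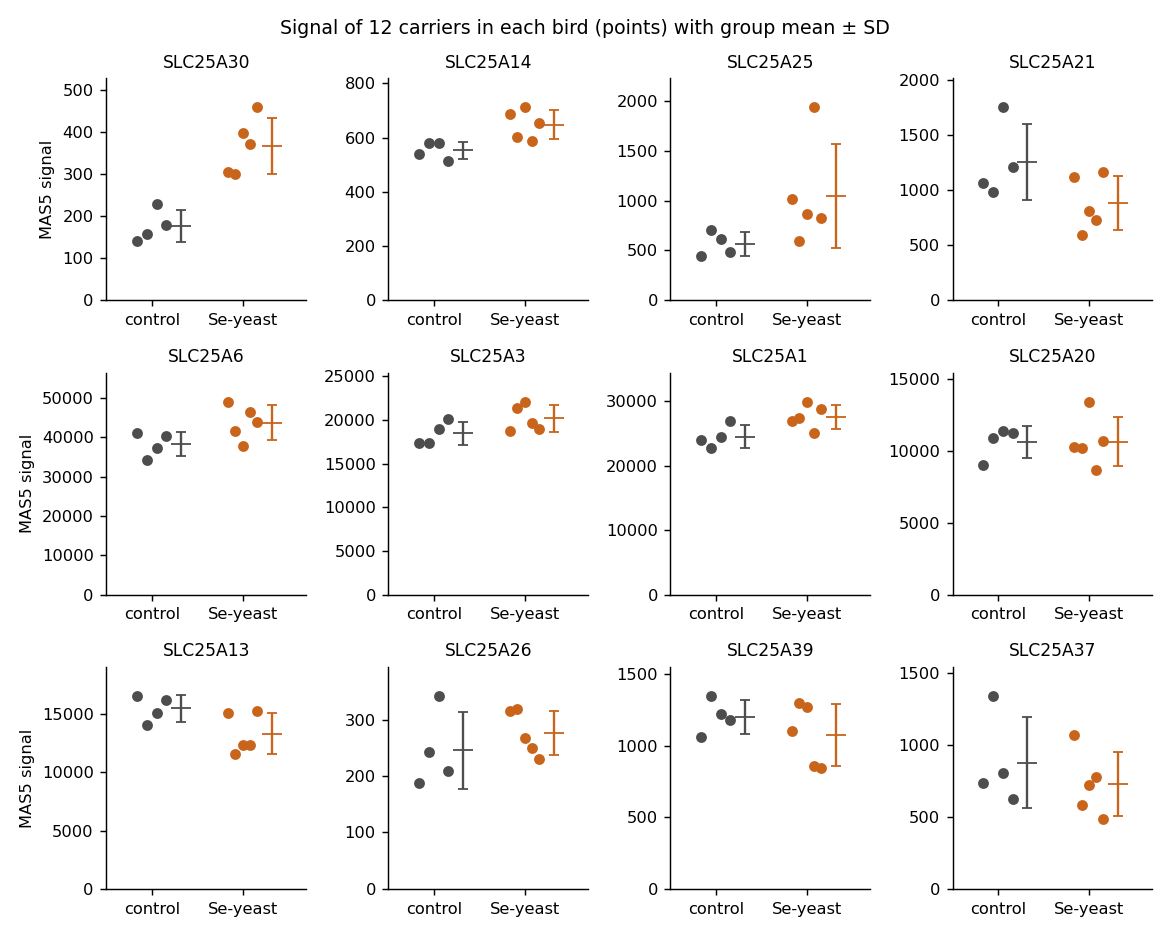
MAS5 signal (vertical axes, linear and starting at 0) of 12 carriers in each bird, control in grey and Se-yeast in orange, with the group mean ± SD to the right of the points. SLC25A30 (141 to 229.8 in control, 299.9 to 459 in Se-yeast) and SLC25A14 part the groups, whereas the groups of the other carriers drawn overlap.

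All 5 measured adenine nucleotide carriers had positive differences, from 0.15 to 0.78, and none passed. Of all 10382 tested genes 5499 had a positive difference. The ADP/ATP carriers send the ATP made in the matrix to the cytosol in return for ADP. SLC25A6, one of 3 such paralogues on the array, gave 40952, 34283, 37277 and 40338 in control and 49037, 41574, 37646, 46385 and 43829 in Se-yeast birds. Its highest values came from Se-yeast replicates 1 and 4, yet Se-yeast replicate 3 lay below control replicates 1 and 4. The difference was 0.19 (95% interval -0.048 to 0.43) and 0.17 on its other probe set, and quantile normalisation brought the first value to 0.069. SLC25A5 gave 8236, 8818, 10025 and 8717 in control and 10075, 11518, 10260.4, 10819.5 and 7395 in Se-yeast birds. Here the lowest and the highest bird were both in the Se-yeast group, replicates 5 and 2, and the difference was 0.15. SLC25A4, the main form of mammalian heart and skeletal muscle, gave 6436, 3107, 4234 and 4285 in control and 3459, 4822, 5484, 6368 and 6303 in Se-yeast birds. Values spread by 2.07-fold and the highest bird, control replicate 1, was a control (0.24, 95% interval -0.23 to 0.72). The brightest probe sets of SLC25A4 and SLC25A6 are of a kind that can also read related transcripts, and these paralogues are close in sequence, so signal may be shared among them.

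The ATP-Mg/phosphate carriers shift the total adenine nucleotide content of the matrix under the control of calcium. SLC25A25, a member whose transcript responds to hormones in mammals, gave 446, 708, 616 and 484 in control birds. In Se-yeast birds it gave 1012, 590.4, 868, 1932 and 824. Se-yeast replicate 4 stood far above the rest, while Se-yeast replicate 2 lay inside the control range of 446 to 708. The difference of 0.78 (SE 0.28, 95% interval 0.17 to 1.39; limma adjusted p = 0.999) was 0.64 and 0.31 on the dimmer probe sets, on which replicate 4 was again the highest bird. Without that bird the difference was 0.53 on the brightest probe set and 0.38 on the second, which was 0.42 without control replicate 1. PPARGC1A, a coactivator of mitochondrial and gluconeogenic genes, was also highest in Se-yeast replicate 4, at 1783, with 501 to 1064 in control birds. In Se-yeast replicate 1 PPARGC1A was nearly as high, at 1588, whereas SLC25A25 was 1012 there against 1932 in replicate 4. The PPARGC1A difference was 0.67 (limma adjusted p = 0.999). A relation between these genes was not tested. SLC25A24, the second carrier of this kind, had signals of 789 to 1391 in control and 1003 to 1587 in Se-yeast birds (0.18).

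Both pyrimidine nucleotide carriers, which supply building blocks for mitochondrial DNA and RNA, overlapped between the diets. SLC25A33 ran from 188 to 263 in control and from 154 to 447 in Se-yeast birds (0.23). The lowest and the highest bird were again both in the Se-yeast group. SLC25A36 stood at -0.031, with means of 670.0 ± 109 in control and 658 ± 125 in Se-yeast birds.

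SLC25A3 brings in the phosphate used to make ATP and also carries copper for cytochrome oxidase. On its bright probe set it gave 17405, 17389, 18989 and 20095 in control and 18703, 21411, 22106, 19626 and 19026 in Se-yeast birds. It was among the steadiest carriers, with 1.27-fold between the lowest and the highest bird, and its difference of 0.13 had an interval of -0.10 to 0.35. The mitoferrins SLC25A28 and SLC25A37 import iron for heme and iron-sulfur clusters, SLC25A37 being the form of developing red cells. SLC25A28 gave 1516 to 2098 in control and 1146 to 2068 in Se-yeast birds (-0.19), with -0.20 on its other tested probe set. SLC25A37 gave 736, 1338, 804 and 623 in control and 1067, 582, 719, 777 and 483 in Se-yeast birds (-0.26). On this probe set its highest bird was control replicate 2 and the next was Se-yeast replicate 1. The summed signal of the 7 erythroid markers on the array, hemoglobin chains and membrane proteins of the nucleated chicken red cell among them, was also highest in these birds, at 71280.0 and 48626. Over all birds that sum ran from 20766 to 71280.0 in control and from 17802 to 48626 in Se-yeast birds. Its part in the SLC25A37 values was not tested. On dimmer tested probe sets of SLC25A37 the differences were 0.083 and -0.54, and the order of the birds was another. On the first, Se-yeast replicates 4 and 1 were highest, at 212 and 195, with control replicate 2 at 156. On the second, control replicate 2 was again highest, at 228, and Se-yeast replicate 1 was lowest, at 14.9.

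The carboxylate carriers serve the exchange of citric acid cycle intermediates with the cytosol. SLC25A1 exports the citrate from which fatty acids and sterols are made. Its signal was 24032, 22701, 24462 and 26927 in control and 26896, 27365, 29975, 25040.2 and 28836 in Se-yeast birds. Only 1.32-fold separated its lowest from its highest bird, and the difference was 0.17 (95% interval -0.051 to 0.39), with 0.070 on the other probe set. ACLY, which cleaves cytosolic citrate, was 6209.7 and 9548 in Se-yeast replicates 4 and 5 against 19847 to 20654 in the other Se-yeast birds. ACO1, which turns cytosolic citrate into isocitrate, varied by 1.33-fold over the 9 birds. Malic enzyme ME1, which makes NADPH from malate, was 5444 and 6519 in Se-yeast replicates 4 and 5. SLC25A1 in those replicates, 25040.2 and 28836, stayed within the range of the remaining birds.

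SLC25A21 carries oxodicarboxylates from lysine and tryptophan breakdown. When every carrier was read from its brightest probe set, SLC25A21 had the most negative difference. Dimmer tested probe sets of SLC25A22 (-1.06), SLC25A39 (-0.63) and SLC25A37 (-0.54) lay lower still. SLC25A21 gave 1071, 985, 1754 and 1211 in control and 1123, 592, 813, 735 and 1165 in Se-yeast birds. Control replicate 3 was the highest bird, and Se-yeast replicates 1 and 5 lay within the control range. The difference of -0.50 (SE 0.23, 95% interval -0.99 to -0.015; limma adjusted p = 0.999) was -0.33 without control replicate 3, more than 1.5 times smaller. The dicarboxylate carrier SLC25A10 differed by 3.04-fold between birds, from 191 to 443 in control and from 183 to 555 in Se-yeast birds, and its difference was near 0 and turned negative with median centring (0.049, 95% interval -0.68 to 0.78).

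SLC25A20 admits acylcarnitines, the form in which long-chain fatty acids enter the matrix for oxidation. It gave 9031, 10917, 11404 and 11291 in control and 10303, 10206, 13450.3, 8685 and 10682 in Se-yeast birds. The group means were nearly equal, and the difference, which turned positive with quantile normalisation, was -0.0077 with an interval of -0.30 to 0.29. CPT1A, which makes the acylcarnitines on the outer membrane, was 2231 and 4012 in Se-yeast replicates 4 and 5 and 219 to 499 in the other birds. SLC25A20 in those replicates was 8685 and 10682, the first the lowest of all birds and the second in the middle.

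Of the 6 amino acid carriers 5 had negative differences and 1 a positive one, and none passed. Negative differences were found in 4883 of all 10382 tested genes. The value of SLC25A22, near 0, turned positive with quantile normalisation. Citrin, SLC25A13, exports aspartate for the urea cycle and the malate-aspartate shuttle in mammalian liver. It gave 16529, 14021, 15081 and 16207 in control and 15056, 11517, 12295, 12341 and 15242 in Se-yeast birds. Se-yeast replicates 2, 3 and 4 lay below all controls, whereas replicates 1 and 5 lay among them. The difference was -0.22 (95% interval -0.49 to 0.037) on this probe set and -0.0017 and -0.066 on the others. Its paralogue SLC25A12 kept to 459.5 to 510.2 in control birds and ran from 185 to 636 in Se-yeast birds (-0.18), with Se-yeast replicate 2 the lowest and a difference of 0.11 without that bird. SLC25A15 exchanges ornithine for citrulline, a step that the urea cycle needs; birds excrete uric acid instead. It was dim, at 109, 51.3, 132 and 133 in control and 171, 196, 108, 119 and 115 in Se-yeast birds. Control replicate 2 lay below the filter level and the groups overlapped (0.40, 95% interval -0.23 to 1.04).

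The remaining amino acid carriers import glutamate, basic amino acids and glycine. SLC25A22, a glutamate carrier, gave 2525 ± 652 in control and 2509 ± 597 in Se-yeast birds (-0.0092). A dim probe set of the same gene stood at -1.06 with an interval of -2.33 to 0.21, and on it Se-yeast replicates 2 and 5 had signals of 7.66 and 24.2. SLC25A29, which carries basic amino acids, gave 4219 ± 976 in control and 3643 ± 925 in Se-yeast birds (-0.22). The difference was -0.034 without the lowest bird, Se-yeast replicate 5, and -0.41 without control replicate 4. SLC25A38 supplies glycine to heme synthesis and gave 254 ± 41.5 in control and 243 ± 44.8 in Se-yeast birds (-0.063, 95% interval -0.47 to 0.35). GLDC, the enzyme that splits glycine in the matrix, had signals of 8899 to 11360.2 in control and 4928 to 8135 in Se-yeast birds. These ranges did not overlap, as was so for 1.64% of all tested probe sets. The GLDC difference of -0.63 did not pass (limma adjusted p = 0.999).

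SLC25A26 carries S-adenosylmethionine into mitochondria, and the selenium of the yeast comes mainly as selenomethionine, which shares the enzyme MAT1A with methionine. SLC25A26 gave 188, 242, 342 and 209 in control and 314, 319, 267, 249.5 and 231 in Se-yeast birds. The highest bird, replicate 3, and the lowest, replicate 1, were both controls (0.19, 95% interval -0.25 to 0.62). MAT1A gave 29859.8 to 35916 in control and 36210.2 to 48599 in Se-yeast birds, ranges that did not overlap. Its difference of 0.31 did not pass (limma adjusted p = 0.999). Groups did not overlap for 1.64% of all tested probe sets. The 7 hepatocyte markers, whose sums did not overlap either although each marker by itself did, had a median difference of 0.31. Their part in the MAT1A values was not tested. The other cofactor carriers lay between -0.21 for SLC25A16, a carrier linked to coenzyme A, and 0.13 for SLC25A42, the coenzyme A carrier. Between them stood SLC25A32 for folate and FAD at -0.13, the peroxisomal cofactor carrier SLC25A17 at 0.072 and the NAD carrier SLC25A51 at 0.072. Their intervals all crossed 0. SLC25A32 had negative values on each of its 4 tested probe sets, from -0.35 to -0.13.

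SLC25A39 imports glutathione, the substrate of the glutathione peroxidases, into the matrix. On its brightest probe set it gave 1063, 1349.8, 1222 and 1178 in control and 1107, 1297, 1269, 860.3 and 846 in Se-yeast birds. Se-yeast replicates 4 and 5 lay below all other birds, and replicates 2 and 3 lay above 3 of the 4 controls. The difference was -0.18 (95% interval -0.54 to 0.18) there, -0.63 and -0.40 on the dimmer probe sets, and Se-yeast replicate 5 was the lowest bird on all 3. None of these values passed (limma adjusted p = 0.999). In the same livers GPX1, the selenium-dependent peroxidase of cytosol and mitochondria, rose from 5436 ± 454 to 12191 ± 1044 (adjusted p = 0.00174). SLC25A40 was not analysed here.

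SLC25A46 sits in the outer membrane and takes part in mitochondrial fission and fusion. It gave 807 to 1206 in control and 429 to 1277 in Se-yeast birds (-0.28), and -0.0017 on its other probe set. In the GRCg7b assembly SLC25A46 and SLC25A51 lie on the Z chromosome, of which male birds have an extra copy; the labels give no sex. The 3 less characterised carriers all had negative differences, as did 4883 of all 10382 tested genes. Without control replicate 2 SLC25A47 turned to 0.0030. SLC25A43 gave 634, 605, 605 and 604 in control and 601, 467, 584, 576 and 562 in Se-yeast birds. The highest Se-yeast bird lay just below the lowest control bird, and the difference was -0.13 (95% interval -0.43 to 0.16). On its dimmer probe set the groups overlapped, with 209 to 249.9 in control and 197 to 228 in Se-yeast birds (-0.12). SLC25A47, a carrier confined in mammals largely to liver, gave 649.5 ± 81.7 in control and 618 ± 107 in Se-yeast birds (-0.080). SLC25A48 was dim, at 122 to 183 in control and 66.9 to 166 in Se-yeast birds (-0.48, 95% interval -1.07 to 0.11).

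Probe sets of one gene gave a check on the single values. Of the 18 carriers with several tested probe sets, 15 had the same sign on all of them and 3, SLC25A37, SLC25A38 and SLC25A20, did not. The median distance between the lowest and the highest value of a gene was 0.18 on the log2 scale, close to the median size of a carrier difference, 0.18. It was over 0.5 for SLC25A22 (1.05) and SLC25A37 (0.62), both through dim probe sets. Of the brightest probe sets of the 33 genes, 9 were of the kind that can also read related transcripts. The other 15 carriers, SLC25A30 among them, rested on 1 tested probe set. The 14 carrier probe sets below the filter belonged to 8 genes, 4 of them to SLC25A42, and their signals ran from 1.75 to 214.

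The carriers had a similar mean level in every bird. The mean log2 level over the 33 genes was 10.29 ± 0.074 over the 4 control birds and 10.32 ± 0.066 over the 5 Se-yeast birds (mean ± SD), with ranges of 10.22 to 10.38 and 10.24 to 10.38. Se-yeast replicate 2 was the lowest bird for 8 carriers and Se-yeast replicate 5 for 7, while Se-yeast replicate 1 was the highest for 6. The spread between birds differed by gene. The highest bird stood less than 1.5-fold above the lowest for 7 carriers, SLC25A3, SLC25A1 and SLC25A6 among them, and more than 3-fold above it for 5: SLC25A10, SLC25A30, SLC25A12, SLC25A15 and SLC25A25. Of these, SLC25A30 had a within-group SD of 0.26, and the others had SDs from 0.44 to 0.61.

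**Figure D4:**
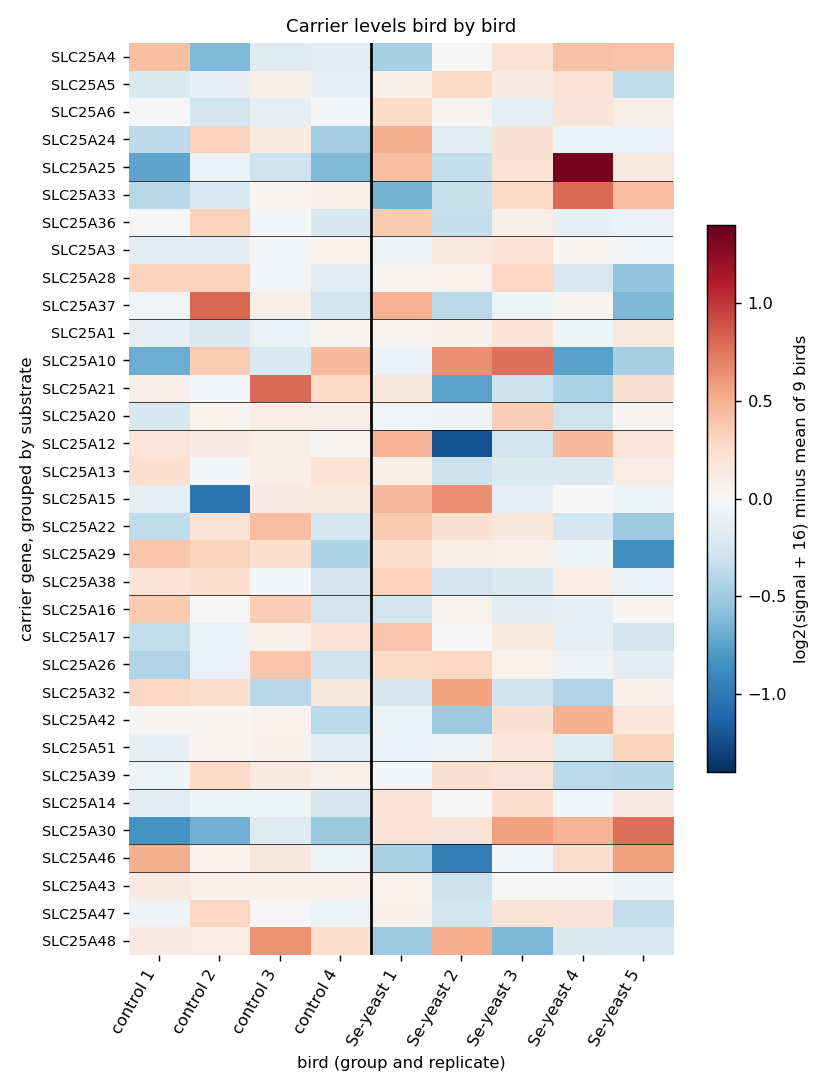
Level of each carrier (rows, grouped by substrate) in each bird (columns) as log2(signal + 16) minus the mean of the 9 birds, with red above and blue below that mean; the vertical line separates the diets. SLC25A30 is blue in all controls and red in all Se-yeast birds, and the strongest single cells are SLC25A25 in Se-yeast replicate 4 (1.34) and SLC25A12 in Se-yeast replicate 2 (-1.22).

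Related mitochondrial genes were counted from lists chosen with earlier results known. Of the SLC25-family genes with other symbols, MTCH2, which helps insert proteins into the outer membrane, was tested and stood at 0.0035. Of 30 listed symbols for mitochondrial transporters and pores of other families 19 were tested. They split into 11 positive and 8 negative differences (median 0.043), and none passed or had an unadjusted p under 0.05. The sodium-calcium exchanger SLC8B1 at 0.29 and the outer membrane pore VDAC3 at -0.24 had the smallest p. Of the enzymes that make or use what the carriers move, 39 were tested, 25 with a positive and 14 with a negative difference (median 0.062). Over all 10382 tested genes 5499 differences were positive and 4883 negative. GPX1 alone passed, so that 1 of 39 was higher and 0 lower, against 0.0173% and 0.00867% of all tested probe sets. An unadjusted p under 0.05 was found for 5 (12.8%), against 4.67% of all tested probe sets: GPX1, GLDC, GPX4, MAT1A and CRAT. GPX4, which reduces lipid hydroperoxides, stood at 0.58 and CRAT, which forms acylcarnitines, at 0.51, and neither passed. The 27 general mitochondrial genes parted into 11 with a positive and 16 with a negative difference (median -0.023), and none passed; 2 had an unadjusted p under 0.05, PPARGC1A at 0.67 and the fusion protein MFN1 at -0.36.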

How the data were processed

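Liver RNA of 9 birds was measured on a 1-colour Affymetrix chicken array. The deposited intensities are linear, 1 for each probe set and array, and were made with MAS5 (version not given here), per the submitters' processing notes. MAS5 had scaled the arrays, whose trimmed means were all 499.9, so each difference is relative to the rest of the array. No detection calls were used here. The pseudocount of 16 pulls differences of dim probe sets towards 0.

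The table held 38535 probe sets. After 96 array controls were set aside, 27168 had 1 gene symbol, 177 several and 11094 none here, and only the first kind was named. All 33 carrier genes matched the RefSeq table of GRCg7b. log2(signal + 16) was fitted with limma 3.58.1 under R 4.3.3 (lmFit and eBayes, the variance prior following the intensity) on all 23063 probe sets past the filter, Se-yeast minus control, without covariates; tests were two-sided with a threshold of 0.05. Folds are on this log2 scale, and signals of groups are means ± SD between birds. The fit was tested on simulated data, in 5 runs with 200 changed probe sets each. It found 2% of changes of 0.5 on the log2 scale, 42.75% of changes of 1 and 82.5% of changes of 2. A mean of 7 unchanged probe sets passed in each run. The shares found hold for runs with 200 changed probe sets and can be too high where fewer change. Arrays have no read depth; their number limits the precision.

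A gene was represented by its tested probe set with the highest mean signal. Every carrier was open to naming; values of all birds were due for SLC25A30, carriers of set roles and the 8 probe sets with the smallest p, and of each other list up to 4 members with the smallest p or members counted. ACLY, ACO1, ME1 and CPT1A, which have larger p, and UCP3, which was not tested, were picked from their lists after their values were seen. The members and lists were chosen with earlier results of these data known, so no p is adjusted over a list. Alternatives were pseudocounts of 1 and 64, no filter or the 60th percentile, quantile normalisation, median centring, variance priors, a replicate block, a W-chromosome covariate and each bird left out.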

Additional observations from a re-analysis of the deposited data

Results flagged for a closer look

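Each diet group of each of the 33 genes was checked for a bird apart from the others by Dixon's 95% critical value. Such a bird was found in 5 of 66 groups (7.58%). Over all tested probe sets, not 1 a gene, the share was 5.63%, and about 1 in 20 groups is expected by chance. Se-yeast replicate 5 was low for SLC25A29, at 2082 with 3634 to 4496 in the rest of its group. Control replicate 4 was low for SLC25A42, at 229 against 306 to 312. For SLC25A43 control replicate 1 was high, at 634, and Se-yeast replicate 2 was low, at 467. For SLC25A47 control replicate 2 was high, at 771 against 597 to 624.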

How the results depend on the processing

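Under all 19 alternatives no carrier probe set passed, and the smallest adjusted p among them lay between 0.287 and 0.99995. SLC25A30 stayed positive in all 19, from 0.84 with a pseudocount of 64 to 1.12 without control replicate 3; leaving out 1 bird gave 0.90 to 1.12, and its adjusted p ran from 0.287 with the W-chromosome covariate to 0.99995 without control replicate 4. That covariate, the W-linked LOC107049459, was 10.31 on the log2 scale in Se-yeast replicate 1 and 5.38 to 7.09 in the other birds. The median over the carrier genes lay between -0.066 (median centring) and 0.057 (without control replicate 2), and leaving out 1 bird gave -0.050 to 0.057. The differences of 25 carriers kept their sign throughout; those of SLC25A10, SLC25A12, SLC25A17, SLC25A20, SLC25A22, SLC25A36, SLC25A38 and SLC25A47, at most 0.18 in size, did not. Same-numbered birds of the groups did not deviate together (correlations of -0.11, 0.038, 0.024 and -0.0024 for replicates 1 to 4). Differently numbered birds had correlations of -0.20 to 0.19. These values show no pairing by number, but so few birds cannot exclude one. With a replicate block SLC25A30 stood at 0.91 (adjusted p = 0.961) and the carrier median at 0.0031. Over all probe sets 3 passed with the block against 6 without it, and 3 to 7 over the alternatives. The block leaves Se-yeast replicate 5 without a partner, so that bird does not bear on its values. For the next count only the brightest probe set of each gene was followed. Dimmer ones of SLC25A13 stood at -0.0017 and -0.066, against -0.22 on the brightest. In 28 of the 33 genes, all but SLC25A13, SLC25A14, SLC25A25, SLC25A30 and SLC25A48, the value moved by over 1.5 times under at least 1 alternative. Some of these moves came with the scaling and not with a bird left out. SLC25A1 and SLC25A3 were smallest with median centring, and SLC25A6 with quantile normalisation.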

Other observations

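Carriers that neighbour each other in the GRCg7b assembly were set side by side after their values were seen. SLC25A29 and SLC25A47 are adjacent protein-coding genes on chromosome 5, and both had their lowest signal in Se-yeast replicate 5, at 2082 and 494. That bird was the lowest for 7 of the 33 carriers. SLC25A5 and SLC25A43 are adjacent on chromosome 4; SLC25A5 was highest in Se-yeast replicate 2, at 11518, the bird in which SLC25A43 was lowest, at 467.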
